A study of Macaca mulatta with 11 samples.

Results

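AREG, BTC, EGFR and ERBB3 encode 2 EGF-like ligands and 2 receptors of the EGF receptor family. They were followed in cumulus cells of the rhesus monkey, somatic cells that enclose the oocyte within the ovarian follicle. The 4 genes were chosen with earlier results of these data known. The members were all probe sets annotated with one of these 4 symbols alone, whatever their values. This gave 8 probe sets of 52766 tested, 1 for AREG, 2 for BTC, 1 for EGFR and 4 for ERBB3, and 4 genes of 14132 with a probe set of their own. No probe set with several symbols named a member. The genes BTC, AREG and EREG, which encode 3 such ligands, are direct neighbours among protein-coding genes in the RefSeq annotation of assembly T2T-MMU8v2.0, while EGFR and ERBB3 lie on other chromosomes.

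RNA of the cumulus cells was hybridized to Affymetrix rhesus arrays, 1 array a sample, in 3 groups. The 4 PM (pre-maturation) samples came from immature cumulus-oocyte complexes after stimulation with FSH and nothing else. The 3 IVM samples came from complexes of FSH-stimulated cycles that were matured in vitro, and the 4 VVM samples from complexes that matured in vivo after FSH and hCG. All 3 groups therefore share the FSH stimulation, and IVM differs from VVM both in the culture and in the hCG stimulation. Whether the culture medium of IVM held LH or hCG is not given in the sources used here. Each sample gave 50 ng of total RNA, which was amplified before labelling with biotin. The animals, their ages, any pooling, the culture medium and the times of collection are not given in the sources used here, so the p-values reflect no more than the spread among the arrays of a group, which may be technical in part. In bulk RNA of this kind, fewer cells of a type and less RNA per cell cannot be told apart.

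EGF-like ligands are made as membrane proteins and are released by proteases of the ADAM family. In the rodent follicle the LH surge, for which hCG substitutes, induces amphiregulin (AREG), epiregulin (EREG) and betacellulin (BTC), which carry the LH signal to cumulus cells through EGFR and the RAS to ERK kinases, and the cumulus cells answer with a hyaluronan-rich matrix. Amphiregulin binds EGFR, betacellulin binds EGFR and ERBB4, and ERBB3 binds neuregulins, has little kinase activity of its own and signals through partners such as ERBB2.

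Levels below are log2 of the deposited RMA intensity. RMA is a summary of all probes of a set after background correction and normalization across arrays, so a level of 1 probe set cannot be set against that of another. A difference of 1 on this scale is a fold of 2. The median probe set lay between 5.34 and 5.53 on the 11 arrays. Differences carry a standard error (SE) from a limma fit of all probe sets and all 11 arrays, and "called" means a p below 0.05 after Benjamini-Hochberg adjustment over the 52766 probe sets. The 3 comparisons share arrays, the PM arrays in one pair of them, IVM in another and VVM in the last.

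Markers of the cell types were read first. Of 21 cumulus and granulosa cell markers 19 were measured, and the mean of 17 of them lay above the array median in each group. So did 7 of 9 endothelial markers in each group, and 6, 8 and 11 of 14 leukocyte markers in PM, IVM and VVM. Of 7 theca and stroma markers 4 did so in each group, and of 10 oocyte markers 3, 4 and 4. This count does not tell the cell types apart, so it is no test of the label of the cells. The arrays differed in more than maturation. The spiked hybridization controls, 18 probe sets for transcripts added in fixed amounts, averaged 10.05 ± 0.21 (SD) in PM, 11.91 ± 0.40 in IVM and 11.03 ± 0.43 in VVM. The 3 groups did not overlap in these controls, as the lowest IVM array (11.45) lay above the highest VVM array (11.31). The difference between 3′ and 5′ probe sets of the control genes, which grows as RNA is shortened, was 3.38 ± 0.10 in PM, 3.92 ± 0.39 in IVM and 3.70 ± 0.19 in VVM, and the highest array was IVM 1 at 4.36. From a list of 20 leukocyte genes, 4 were averaged (LYZ, TYROBP, CD14 and PTPRC). Their mean was 4.37 ± 0.14 in PM, 4.60 ± 0.10 in IVM and 6.74 ± 1.64 in VVM. It reached 7.48 in VVM 2 and 8.70 in VVM 3. Of the whole leukocyte list 14 of 20 genes were measured, none was at 0, as RMA gives no zeros, and their summed intensity ranged from 1553 to 1756 in PM, from 895 to 1128 in IVM and from 810 to 3528 in VVM. That sum did not follow the 4 genes, as it was lower in IVM than in PM. For VVM against PM 8 of the 14 genes were called higher and 2 lower, where 18.0% of all genes were higher and 21.8% lower. Each result was therefore also fitted with 3 covariates in turn, the hybridization controls, the 3′ to 5′ difference and the mean of the 4 leukocyte genes. Below, "the leukocyte genes" as covariate means these 4, and another choice from the list was not tested.

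AREG was the member with the widest range, lowest before maturation and highest after maturation in vivo. The 4 PM arrays read 4.41, 4.70, 4.32 and 5.44. The 3 IVM arrays read 8.08, 6.29 and 5.52. The 4 VVM arrays read 11.05, 11.66, 12.36 and 10.40. No array of one group overlapped another group, and the groups were ordered PM, IVM, VVM. The step between PM 4 and IVM 3 was 0.08, while VVM lay at least 2.32 above every IVM array and 4.96 above every PM array. In PM the signal exceeded the array's own median in 1 of 4 arrays, against 3 of 3 in IVM and 4 of 4 in VVM.

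Cells matured in vivo held 100.5-fold more AREG signal than pre-maturation cells (6.65 ± 0.54 SE, 95% interval 5.48 to 7.83, adjusted p = 1.51e-05), with group means of 11.37 ± 0.84 (SD, n = 4) and 4.72 ± 0.51 (SD, n = 4). By absolute difference this was the 10th of all 52766 probe sets. The PM level lay low on the scale of the arrays, where RMA compresses differences, so this AREG fold may be too small. Culture-matured cells were 26.6-fold below those matured in vivo (-4.73 ± 0.58 SE, interval -6.00 to -3.47, adjusted p = 0.000757), the 13th by absolute difference. Both calls held under all 24 alternative settings, with differences of 5.43 to 6.97 for VVM against PM and of -5.66 to -3.63 for IVM against VVM. With the leukocyte genes as covariate they were 5.43 and -3.63, and without PM 1, VVM 2 and VVM 3 they were 5.90 and -4.09.

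AREG was also higher in IVM, at 6.63 ± 1.31 (SD, n = 3), than in PM, by 1.92 ± 0.58 (interval 0.65 to 3.19, 3.78-fold, adjusted p = 0.0219), but this call rested on IVM 1. Without IVM 1 the AREG difference was 1.19 (adjusted p = 0.0907). The call also ended without PM 1 (1.81) or PM 3 (1.78), and without PM 1, VVM 2 and VVM 3 together (1.81, adjusted p = 0.0511). With the replicate number as a block in the fit the AREG call was lost too. The AREG difference between IVM and PM also changed with covariates. It was 0.57 (adjusted p = 0.592) with the 3′ to 5′ difference as covariate and -0.04 (adjusted p = 0.995) with the hybridization controls. The part of RNA length and hybridization in this AREG difference was not tested further.

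BTC ran the other way in culture. Its brighter probe set, which stands for the gene in all-gene counts, read 9.52, 8.49, 8.28 and 9.58 in PM. It read 4.79, 5.48 and 5.41 in IVM. It read 8.61, 7.38, 7.76 and 7.37 in VVM. The IVM arrays lay at least 2.80 below every PM array and at least 1.89 below every VVM array, while 1 VVM array reached into the PM range. None of the 3 IVM arrays exceeded its own median, against 4 of 4 in PM and 4 of 4 in VVM.

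Against PM (8.97 ± 0.68, SD, n = 4), the BTC level in IVM (5.23 ± 0.38, n = 3) was 13.4-fold lower (-3.74 ± 0.38 SE, interval -4.58 to -2.90, adjusted p = 5.02e-05), the 140th of all probe sets by absolute difference, a fold that may be too small because the IVM level lay below the array medians. Against VVM (7.78 ± 0.58, n = 4) it was 5.87-fold lower (-2.55 ± 0.38, interval -3.39 to -1.71, adjusted p = 0.00217). Both BTC calls held in every setting tried on this probe set except with the hybridization controls as covariate, where the differences were -1.42 (adjusted p = 0.455) and -1.45 (adjusted p = 0.128). The hybridization controls were highest in IVM, so covariate and group largely overlap.

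Between VVM and PM the BTC difference was smaller, -1.19 ± 0.35 (interval -1.96 to -0.41, 2.28-fold, adjusted p = 0.0258), and the groups overlapped. This call ended when PM 1, PM 4, VVM 2, VVM 3 or VVM 4 was left out, with differences of -1.46 to -0.98 over all 11 omissions. It also ended with the leukocyte genes (-0.98, adjusted p = 0.296) or the 3′ to 5′ difference (-0.74, adjusted p = 0.204) as covariate, after a second quantile normalization (-0.98, adjusted p = 0.0633) and without PM 1, VVM 2 and VVM 3 (-0.79, adjusted p = 0.308). With the hybridization controls as covariate the BTC difference was 0.03 (adjusted p = 0.978).

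The other BTC probe set read 2.52 to 3.11 in PM, 2.58 to 3.01 in IVM and 2.71 to 2.87 in VVM, below the median of all 11 arrays. Its differences were -0.06 for IVM against VVM (adjusted p = 0.839), -0.08 for IVM against PM (adjusted p = 0.715) and -0.01 for VVM against PM (adjusted p = 0.956). The BTC result is thus that of 1 probe set of 2, and the other stayed at the low end of the scale in every sample.

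**Figure D1:**
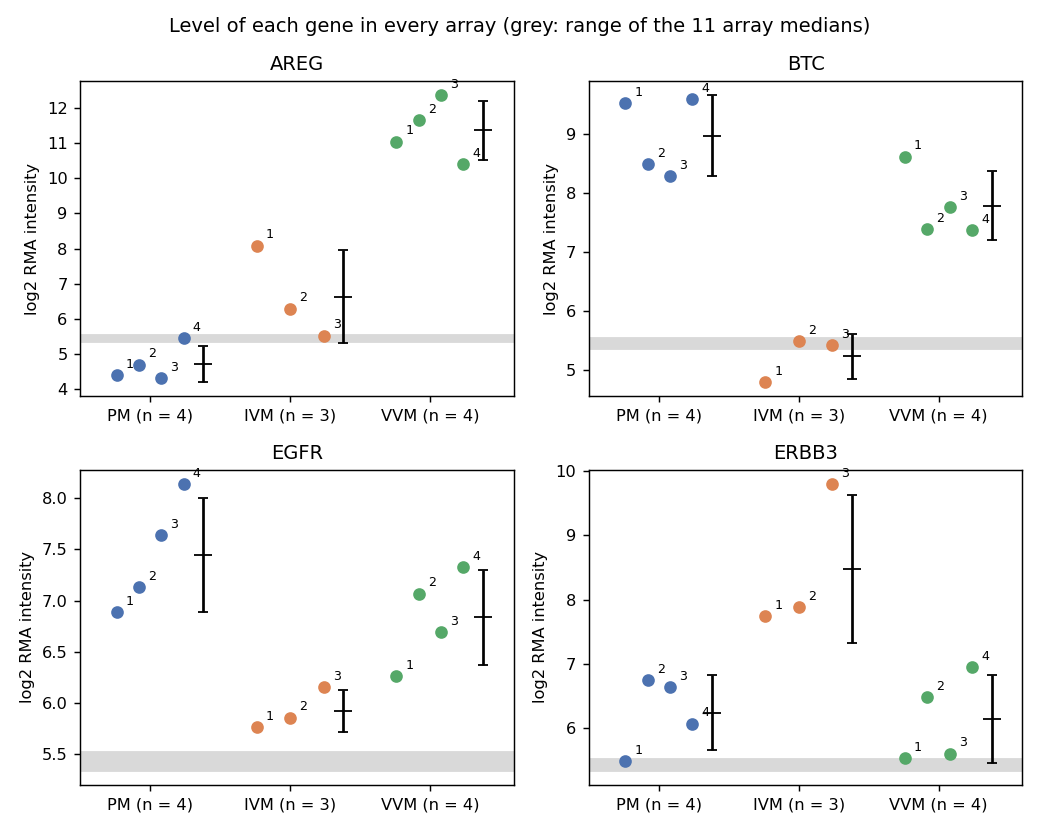
Log2 RMA intensity (vertical axis) of AREG, BTC, EGFR and ERBB3, each by its brightest probe set, in every array of PM (n = 4), IVM (n = 3) and VVM (n = 4); numbers are replicates, bars the group mean ± SD and the grey band the range of the array medians, 5.34 to 5.53. AREG is highest in the 4 VVM arrays, BTC and EGFR are lowest and ERBB3 is highest in the 3 IVM arrays.

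EGFR, the receptor that binds both ligands, was also lowest in culture, with smaller differences. Its single probe set read 6.89, 7.13, 7.64 and 8.14 in PM. It read 5.77, 5.86 and 6.16 in IVM. It read 6.27, 7.07, 6.69 and 7.33 in VVM. All 11 arrays exceeded their own medians, and the 3 IVM arrays lay below the lowest array of both other groups, below that of VVM by 0.11.

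EGFR in IVM (5.93 ± 0.21, SD, n = 3) was 2.87-fold lower than in PM (7.45 ± 0.56, n = 4), by -1.52 ± 0.30 (SE, interval -2.19 to -0.85, adjusted p = 0.0028). This call ended with the hybridization controls (-1.93, adjusted p = 0.378) or the 3′ to 5′ difference (-1.39, adjusted p = 0.0697) as covariate. Against VVM (6.84 ± 0.46, n = 4) the EGFR difference was -0.91 ± 0.30 (interval -1.58 to -0.24, adjusted p = 0.0797), which missed the threshold although the arrays did not overlap. It passed when VVM 1 (-1.10, adjusted p = 0.0470) or PM 4 (-0.91) was left out, so the EGFR call between IVM and VVM depends on which arrays enter the fit. VVM and PM overlapped and the EGFR difference of -0.61 ± 0.28 was not called (interval -1.23 to 0.01, adjusted p = 0.123). With the replicate number as a block in the fit, EGFR was called for IVM against VVM (adjusted p = 0.0451) and for VVM against PM (adjusted p = 0.0243).

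ERBB3 was higher in culture-matured cells than in both other groups by 2 of its 4 probe sets. Probe set 1, the brightest, read 5.49, 6.75, 6.64 and 6.07 in PM. It read 7.75, 7.88 and 9.79 in IVM. It read 5.54, 6.48, 5.61 and 6.94 in VVM. Every IVM array was above every other array, and PM and VVM covered the same range.

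By ERBB3 probe set 1, IVM (8.47 ± 1.15, SD, n = 3) exceeded VVM (6.14 ± 0.69, n = 4) by 2.33 ± 0.52 (SE, interval 1.20 to 3.47, 5.04-fold, adjusted p = 0.0148). It exceeded PM (6.24 ± 0.58, n = 4) by 2.24 ± 0.52 (interval 1.10 to 3.37, 4.71-fold, adjusted p = 0.00615). VVM and PM differed by -0.10 ± 0.48 (adjusted p = 0.897), an interval of -1.15 to 0.95 that leaves room for a change of about 2-fold either way. IVM 3 was the highest array for ERBB3, and the calls against PM and VVM held without it and without any other single array. The call against VVM ended with the leukocyte genes as covariate (1.93, adjusted p = 0.175), without PM 1, VVM 2 and VVM 3 (2.23, adjusted p = 0.0797) and with the hybridization controls (2.49, adjusted p = 0.189), and the call against PM ended with the hybridization controls (2.57, adjusted p = 0.504).

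ERBB3 probe set 2 read 5.69, 6.46, 6.28 and 5.65 in PM, 7.77, 7.61 and 8.96 in IVM, and 5.37, 6.29, 5.69 and 7.08 in VVM. It was 4.01-fold higher in IVM than in VVM (SE of the log2 difference 0.42, adjusted p = 0.0112) and 4.27-fold higher in IVM than in PM (2.09 ± 0.42, adjusted p = 0.00284). For ERBB3 probe set 2 the call against VVM ended with the hybridization controls (1.83, adjusted p = 0.236) or the leukocyte genes (1.67, adjusted p = 0.148) as covariate and without PM 1, VVM 2 and VVM 3 (1.89, adjusted p = 0.0876). The call against PM ended with the hybridization controls (1.72, adjusted p = 0.589) or the 3′ to 5′ difference (2.09, adjusted p = 0.0545).

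The other ERBB3 probe sets differed less. Probe set 3 averaged 5.98 ± 0.14 in PM, 6.10 ± 0.29 in IVM and 6.29 ± 0.23 in VVM, and no comparison of it was called (-0.20 for IVM against VVM, adjusted p = 0.491). Probe set 4 lay below the array median everywhere, at 4.90 ± 0.16, 5.40 ± 0.04 and 5.09 ± 0.13, and every IVM array was above every PM and VVM array. The ERBB3 difference by probe set 4 was called for IVM against PM (0.50 ± 0.12, 1.41-fold, adjusted p = 0.00706) and not for IVM against VVM (0.31 ± 0.12, adjusted p = 0.126). The call ended after cyclic loess (0.24, adjusted p = 0.116) and with the hybridization controls (0.65, adjusted p = 0.45) or the 3′ to 5′ difference (0.55, adjusted p = 0.0638) as covariate. The stretch of ERBB3 that each probe set reads is not given in the files, so which transcripts the 4 probe sets share was not tested.

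**Figure D2:**
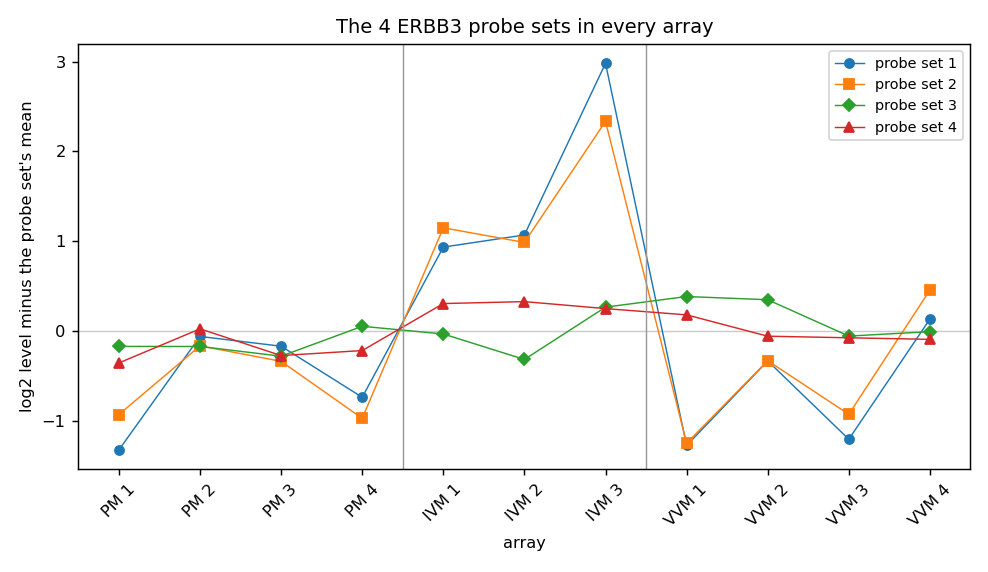
Log2 level minus the mean of the same probe set over 11 arrays (vertical axis) of the 4 ERBB3 probe sets in every array, PM, IVM and VVM separated by grey lines. Probe sets 1 and 2 rise together in the 3 IVM arrays, most in IVM 3, while probe set 4 is higher in IVM by less and probe set 3 shows no such order.

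Over the 8 probe sets, 4 were called for IVM against VVM, 2 higher (ERBB3) and 2 lower (AREG and BTC), where 11.4% of all probe sets were called. In the same comparison the arrays of 6 did not overlap, against 22.2% of all probe sets. For IVM against PM 6 were called, 4 higher and 2 lower, against 40.6% of all, and 6 did not overlap, against 45.6% of all. For VVM against PM 2 were called, AREG higher and BTC lower, against 31.2% of all, and only AREG did not overlap, against 34.6% of all. The 8 probe sets belong to 4 genes and are not independent, and at 2 of 8 the share for VVM against PM was no higher than the background. The 4 genes were chosen with earlier results of these data known, so a share above the background is no test of them.

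**Figure D3:**
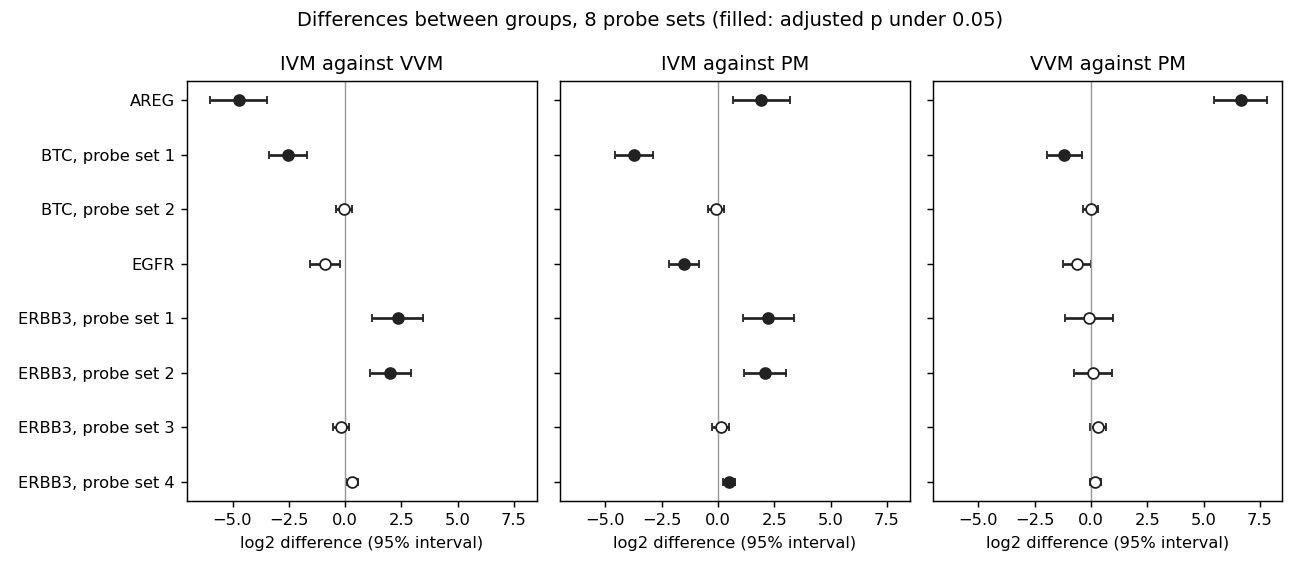
Log2 difference between group means with its 95% interval (horizontal axis) of the 8 probe sets in the 3 comparisons; filled points have an adjusted p under 0.05. AREG lies at -4.73, 1.92 and 6.65 from left to right, BTC probe set 1 at -2.55, -3.74 and -1.19, and ERBB3 probe sets 1 and 2 above 0 in both comparisons with IVM.

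The other genes of the pathway were read from 10 lists by role, holding 123 genes of which 92 were measured, each by its brightest probe set. The lists were chosen with earlier results of these data known, so their counts describe the data and test nothing. For IVM against VVM, 5 of the 92 rose and 17 fell in IVM, where 9.06% of all genes were higher and 7.63% lower. The median difference of the 92 was -0.10, against 0.08 over all genes. For IVM against PM 22 rose and 27 fell, against 25.0% and 20.9% of all genes (medians -0.02 and 0.12). For VVM against PM 27 rose and 17 fell, against 18.0% and 21.8% of all genes (medians 0.16 and 0.04). The split of the calls over all genes moves with the scaling, since 54.5% of those for IVM against PM and 45.3% of those for VVM against PM were higher as deposited, but 37.9% and 32.6% after each array was centred on its median. After that centring the pathway genes gave 18 higher and 31 lower for IVM against PM, and 21 higher and 21 lower for VVM against PM.

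The covariates bear on these counts too. With the hybridization controls in the fit none of the 92 was called for IVM against PM, where 8 of all 52766 probe sets remained. For IVM against VVM 0 rose and 4 fell, where 718 of all 52766 probe sets remained. With the leukocyte genes in the fit 3 rose and 14 fell for IVM against VVM, and 16 rose and 9 fell for VVM against PM. Without PM 1, VVM 2 and VVM 3 these counts were 4 and 15, and 16 and 9. Calls over all probe sets also fell in each of these settings, with counts given further below. The pathway counts were not set against a share over all genes at the same setting. They are therefore no result about the pathway genes.

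Of the calls named below, the hybridization controls as covariate ended 34 of 34 for IVM against PM, 15 of 19 for IVM against VVM (all but SPRY1, LRIG1, EGR2 and PTX3) and 18 of 34 for VVM against PM (ADAM9, ADAM15, ADCY9, CBLB, CD44, ELK1, ETV4, GAB2, HAS2, ITIH2, NPPC, NRAS, RHBDF2, SOS1, SPRY4, STAM2, TGFA and VCAN). The 3′ to 5′ covariate ended 12 of 34 for IVM against PM (ADAM9, ADCY9, DUSP7, FRMD8, HAS2, NEDD4, NPR2, NRG2, NRG4, SH3KBP1, SPRY1 and SPRY4), 2 of 19 for IVM against VVM (EPN1 and GAB2) and 11 of 34 for VVM against PM (ADAM15, ADCY9, CBLB, CD44, ETV4, GAB2, HAS2, RHBDF2, SOS1, SPRY4 and STAM2). The leukocyte covariate ended 7 of 19 for IVM against VVM (ADAM15, ETS2, IER2, KSR1, PTPN1, PTX3 and SPRY2), 16 of 34 for VVM against PM (ADAM15, ADCY9, CBLB, CD44, ELK1, ETS2, ETV4, GAB2, ITIH2, NPPC, RHBDF1, RHBDF2, SOS1, SPRY4, STAM2 and TGFA) and 1 of 34 for IVM against PM (NRG4). Leaving out PM 1, VVM 2 and VVM 3 ended 14 of 34 for VVM against PM, HAS2 among them, 4 of 19 for IVM against VVM (ADAM15, ETS2, PTPN1 and SPRY2) and 3 of 34 for IVM against PM (ADAM9, NRG2 and NRG4). Their part in these differences was not tested.

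Probe sets of a gene often differed. Of the 87 differences named below, 56 were of genes with several probe sets, and in 42 of these not every probe set was called the same way. For IVM against VVM 1 of 3 LRIG1 probe sets was called as described, 1 of 4 for SOS2 and EPN1, and 1 of 2 for SPRY2, PTPN1, ETS2, EGR2, CREB1, ADAM15 and MAP2K2. Against PM, in one or both matured groups, it was 1 of 2 for RHBDF1, CREB1, ADCY9, SPRY2, EGR2, ETS2, DUSP7, NRG2, TGFA, SHC1, ETV4, ADAM9 and ADAM15, 1 of 3 for ADAM10 and SPRED2, 1 of 4 for SOS2, VAV2 and FRMD8, 1 of 6 for SOS1 and 2 of 7 for STAM2.

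Of 9 other ligands 7 were measured (not EREG or EPGN), and none was called between IVM and VVM (median 0.14), where 9.06% of all genes were higher and 7.63% lower, so a count of 0 of 7 is near that background. Against PM, the neuregulins NRG2 (0.39 ± 0.11, adjusted p = 0.0186) and NRG4 (0.38 ± 0.14, adjusted p = 0.0432) rose in IVM, and TGFA, another EGFR ligand, rose in VVM (0.52 ± 0.10, adjusted p = 0.00267). The NRG2 call ended without PM 1, IVM 1 or IVM 2 (0.34 to 0.35), and that of NRG4 without any single array other than IVM 2 and IVM 3 (0.20 to 0.40, lowest without IVM 1). Both calls also ended after each array was centred on its median and after cyclic loess. That of NRG4 also ended after a second quantile normalization, and NRG4 averaged 2.97 in PM and 3.36 in IVM, below the array medians. TGFA was not called with the leukocyte genes as covariate. HBEGF, whose product is shed like amphiregulin and binds EGFR, averaged 6.25 in PM, 6.73 in IVM and 6.91 in VVM and was not called. Among the other receptors ERBB4 was not measured, and ERBB2, the partner of ERBB3, averaged 7.23 in PM, 6.78 in IVM and 6.79 in VVM, with differences of -0.45 for IVM against PM (adjusted p = 0.0852) and -0.01 for IVM against VVM (adjusted p = 0.986).

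Of 8 genes that act in the release of ligands from the membrane 7 were measured, and ADAM17, the main sheddase of amphiregulin, was not among them. For IVM against PM 2 rose and 3 fell (25.0% and 20.9% over all genes), for VVM against PM 2 rose and 4 fell (18.0% and 21.8%), and for IVM against VVM 1 rose and 0 fell (9.06% and 7.63%), a share near that over all genes. ADAM10, the main sheddase of betacellulin in mouse, rose 2.14-fold in IVM (1.10 ± 0.14, adjusted p = 0.000234) and 2.88-fold in VVM (1.53 ± 0.13, adjusted p = 2.23e-05). ADAM9 rose in VVM (1.16 ± 0.18) and in IVM (0.54 ± 0.19, adjusted p = 0.0444), the latter lost without any 1 of 7 arrays (PM 1, PM 4, the 3 IVM arrays, VVM 1 or VVM 2). ADAM12 fell in both, by -2.07 ± 0.26 and -2.43 ± 0.24, and so did RHBDF1, an inactive rhomboid that guides ADAM17 to the surface (-1.48 ± 0.21 in IVM and -0.96 ± 0.20 in VVM).

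Calls of FRMD8, RHBDF2 and ADAM15 were weak. FRMD8, a partner of the inactive rhomboids, was lower in IVM than in PM by -0.88 ± 0.33 (adjusted p = 0.0495), RHBDF2 lower in VVM by -0.31 ± 0.11 (adjusted p = 0.0458) and ADAM15 lower in VVM by -0.96 ± 0.30 (adjusted p = 0.0318). ADAM15 was the 1 shedding gene called between IVM and VVM (1.12 ± 0.32, adjusted p = 0.0472). The FRMD8 call ended without any single array but PM 1, VVM 1 and VVM 3 (-0.99 to -0.68). That of RHBDF2 ended without any but PM 3, IVM 2 and IVM 3 (-0.33 to -0.27). That of ADAM15 between IVM and VVM ended without any but PM 2, PM 3 and IVM 1 (0.93 to 1.22), and that between VVM and PM without PM 2, PM 4, VVM 1, VVM 2 or VVM 4 (-0.99 to -0.73).

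Feedback inhibitors of the pathway were lower in IVM than in VVM where they were called. Of 18 listed 14 were measured, and 0 rose and 5 fell, where 9.06% of all genes were higher and 7.63% lower. The median over the 14 was -0.43. Against PM 3 rose and 3 fell in IVM, and 4 rose and 1 fell in VVM. These calls made up 42.9% and 35.7% of the list, against 45.9% and 39.8% of all genes. LRIG1, a membrane protein that promotes the degradation of EGF receptors, ranged from 5.52 to 6.24 in PM, from 5.18 to 5.97 in IVM and from 8.42 to 9.56 in VVM. The LRIG1 level was 11.1-fold lower in IVM than in VVM (-3.48 ± 0.28, adjusted p = 9.26e-05) and 8.73-fold higher in VVM than in PM (3.13 ± 0.26, adjusted p = 1.73e-05). SPRY1, a Sprouty inhibitor of RAS to ERK signalling, ranged from 6.48 to 7.07 in PM, from 7.35 to 8.21 in IVM and from 9.53 to 10.34 in VVM. SPRY1 was 4.38-fold lower in IVM than in VVM (-2.13 ± 0.23, adjusted p = 0.000443), 8.86-fold higher in VVM than in PM (3.15 ± 0.21, adjusted p = 7.37e-06) and 2.02-fold higher in IVM than in PM (1.02 ± 0.23, adjusted p = 0.00564). The arrays of VVM stood above all others for both genes, and both calls of LRIG1 and both calls of SPRY1 that involve VVM held in all 24 alternatives. These alternatives cover the brightest probe set of a gene alone. Of 3 LRIG1 probe sets 1 was called for IVM against VVM and 2 for VVM against PM.

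Other feedback genes differed in pattern. SPRY2 was lower in IVM than in VVM (-1.86 ± 0.33, adjusted p = 0.00485) and than in PM (-1.76 ± 0.33, adjusted p = 0.00193), so it was lowest in IVM, as BTC and EGFR were. The phosphatases PTPN1 (-1.13 ± 0.25, adjusted p = 0.0148) and PTPRJ (-0.75 ± 0.14, adjusted p = 0.00704) were lower in IVM than in VVM, and PTPRJ was higher in VVM than in PM (1.05 ± 0.13, adjusted p = 0.000198). The PTPN1 call ended without IVM 2 (-0.84, adjusted p = 0.0563), and the PTPN1 and SPRY2 calls against VVM ended with the leukocyte genes as covariate or without PM 1, VVM 2 and VVM 3. SOCS4 fell in both matured groups (-1.30 ± 0.12 in IVM, -1.56 ± 0.11 in VVM), SPRED2 fell in IVM (-1.27 ± 0.32) and DUSP7, an ERK phosphatase, rose in IVM (0.47 ± 0.11, adjusted p = 0.00668). SPRY4 rose by 1.19 ± 0.37 in IVM (adjusted p = 0.0253) and by 1.01 ± 0.34 in VVM (adjusted p = 0.0447). The first SPRY4 call ended without PM 2, PM 3, PM 4, IVM 1 or IVM 3 (1.07 to 1.15), the second without any array but PM 1 and VVM 2 (0.66 to 1.10, lowest without VVM 3). Both SPRY4 calls also ended after each array was centred on its median and after cyclic loess. The call in VVM ended as well after a second quantile normalization and in a fit of only the 2 groups compared.

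Of 15 adaptors and exchange factors 13 were measured, and 0 rose and 6 fell in IVM against VVM, led by SOS2 (-1.32 ± 0.24), PIK3R1 (-1.14 ± 0.20) and GAB2 (-1.11 ± 0.29). Against PM, 2 rose and 4 fell in IVM, led by GAB2 (-2.08 ± 0.29), SOS2 (-1.54 ± 0.24) and VAV2 (0.94 ± 0.13), and 5 rose and 2 fell in VVM, led by GAB2 (-0.97 ± 0.27), SHC1 (0.70 ± 0.16) and SOS1 (0.64 ± 0.15). The GAB2 call against VVM ended without IVM 2 or IVM 3 (-1.04 to -0.99), and that between VVM and PM without PM 1, PM 4, VVM 2 or VVM 3 (-0.91 to -0.84). SOS1 was not called with the leukocyte genes as covariate. Of the adaptors 46.2% were called for IVM against VVM, 46.2% for IVM against PM and 53.8% for VVM against PM. Over all genes these shares were 16.7%, 45.9% and 39.8%.

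Of 13 RAS to ERK kinases and their GTPases and scaffolds 9 were measured. For IVM against VVM 3 rose and 0 fell, namely the scaffold KSR1 (2.15 ± 0.51), the kinase MAP2K2 (0.94 ± 0.18) and HRAS (0.94 ± 0.20), and the KSR1 call ended without IVM 2 or IVM 3 (1.71 to 2.15) and with the leukocyte genes as covariate. Against PM 3 rose and 4 fell in IVM, led by NRAS (-1.81 ± 0.18), HRAS (1.43 ± 0.20) and MAP2K2 (1.09 ± 0.18). In VVM 0 rose and 4 fell, led by KSR1 (-2.53 ± 0.47), NRAS (-1.31 ± 0.17) and ARAF (-0.84 ± 0.13). Of this list 33.3% were called for IVM against VVM, 77.8% for IVM against PM and 44.4% for VVM against PM. The shares over all genes were 16.7%, 45.9% and 39.8%.

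Of 18 genes of receptor uptake and degradation 14 were measured, and 1 rose (EPN1, 0.58 ± 0.16) and 1 fell (the ubiquitin ligase NEDD4, -1.49 ± 0.21) in IVM against VVM. The EPN1 call ended without any single array but PM 2 and VVM 3 (0.47 to 0.63). Against PM, 1 rose and 5 fell in IVM, led by the sorting protein TSG101 (1.21 ± 0.19), NEDD4 (-0.84 ± 0.21) and SH3KBP1, an adaptor of CBL (-0.81 ± 0.26). The SH3KBP1 call ended without PM 1, PM 3, PM 4 or IVM 2 (-0.82 to -0.54, smallest without IVM 2). In VVM 4 rose and 3 fell, led by TSG101 (1.16 ± 0.17), STAM2 (1.01 ± 0.26) and the ubiquitin ligase CBLB (0.67 ± 0.24). The CBLB call ended without any array but PM 2, IVM 2 and VVM 1 (0.51 to 0.76), and neither STAM2 nor CBLB was called with the leukocyte genes as covariate. The share called was 14.3% for IVM against VVM and 42.9% for IVM against PM, below the 16.7% and 45.9% of all genes. For VVM against PM it was 50%, against 39.8% of all genes.

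Of 16 transcription factors that ERK is known to induce or, as ELK1, to phosphorylate, 9 were measured, and 0 rose and 3 fell in IVM against VVM, EGR2 by -5.38 ± 0.57 (41.7-fold), ETS2 by -2.46 ± 0.45 and IER2 by -1.69 ± 0.30. EGR2 (-4.45 ± 0.57), IER2 (-2.31 ± 0.30) and FOS (-2.07 ± 0.57) were also lower in IVM than in PM, where 2 rose and 4 fell, and the FOS call ended without IVM 2 (-1.56). In VVM against PM 3 rose and 0 fell, ETS2 (2.33 ± 0.42), ELK1 (0.46 ± 0.13) and ETV4 (0.37 ± 0.11). The ELK1 call ended without PM 1, PM 4, VVM 2 or VVM 3 (0.40 to 0.45) and the ETV4 call without PM 1, PM 3, PM 4 or VVM 1 (0.30 to 0.38). With the leukocyte genes as covariate ETS2 was called in neither comparison with VVM, and IER2 was not called between IVM and VVM. Of these factors 33.3% were called for IVM against VVM, 66.7% for IVM against PM and 33.3% for VVM against PM. Among all genes 16.7%, 45.9% and 39.8% were called.

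Of 17 genes upstream of the ligands in the follicle 11 were measured, and 0 rose and 1 fell in IVM against VVM, CREB1, the cAMP-responsive factor (-0.82 ± 0.16). Against PM, 1 rose and 4 fell in IVM, led by CREB1 (-2.71 ± 0.16), ADCY9 (-1.83 ± 0.33) and NPR2 (-0.92 ± 0.17), the receptor by which C-type natriuretic peptide holds mouse oocytes in arrest. In VVM 1 rose and 3 fell, led by CREB1 (-1.89 ± 0.15), ADCY9 (-1.23 ± 0.30) and NPPC (0.69 ± 0.14), which encodes that peptide. The ADCY9 and NPPC calls in VVM ended with the leukocyte genes as covariate and without PM 1, VVM 2 and VVM 3. Of these upstream genes 9.1% were called for IVM against VVM, 45.5% for IVM against PM and 36.4% for VVM against PM. None of these shares exceeded that over all genes (16.7%, 45.9% and 39.8%).

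Listed genes of the expanded cumulus matrix were higher in both matured groups where they were called. Of 8 listed 7 were measured, and 6 rose in IVM and 7 in VVM against PM, with 0 lower in either. Over all genes 25.0% rose in IVM and 18.0% in VVM against PM. This list was chosen with earlier results of these data known, so its counts are no test. In IVM the largest were TNFAIP6 (4.20 ± 0.51), which cross-links hyaluronan, the protease ADAMTS1 (2.92 ± 0.58) and the hyaluronan synthase HAS2 (2.61 ± 0.58), followed by the hyaluronan receptor CD44 (1.13 ± 0.20), VCAN (1.05 ± 0.13) and ITIH2 (0.55 ± 0.12). In VVM they were PTX3 (6.69 ± 0.75), TNFAIP6 (4.88 ± 0.47), ADAMTS1 (4.22 ± 0.54), HAS2 (2.29 ± 0.54), VCAN (0.64 ± 0.12), CD44 (0.54 ± 0.18) and ITIH2 (0.42 ± 0.11). The CD44 call in VVM ended without PM 1, PM 3, PM 4 or any VVM array (0.45 to 0.59), and neither CD44 nor ITIH2 was called in VVM with the leukocyte genes as covariate. PTX3, which stabilizes the matrix, was the 1 gene of 7 called between IVM and VVM (-4.90 ± 0.81, adjusted p = 0.0034). This is 14.3% of the list, against 16.7% of all genes, so the count is near that background. The PTX3 call between IVM and VVM ended with the leukocyte genes as covariate.

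**Figure D4:**
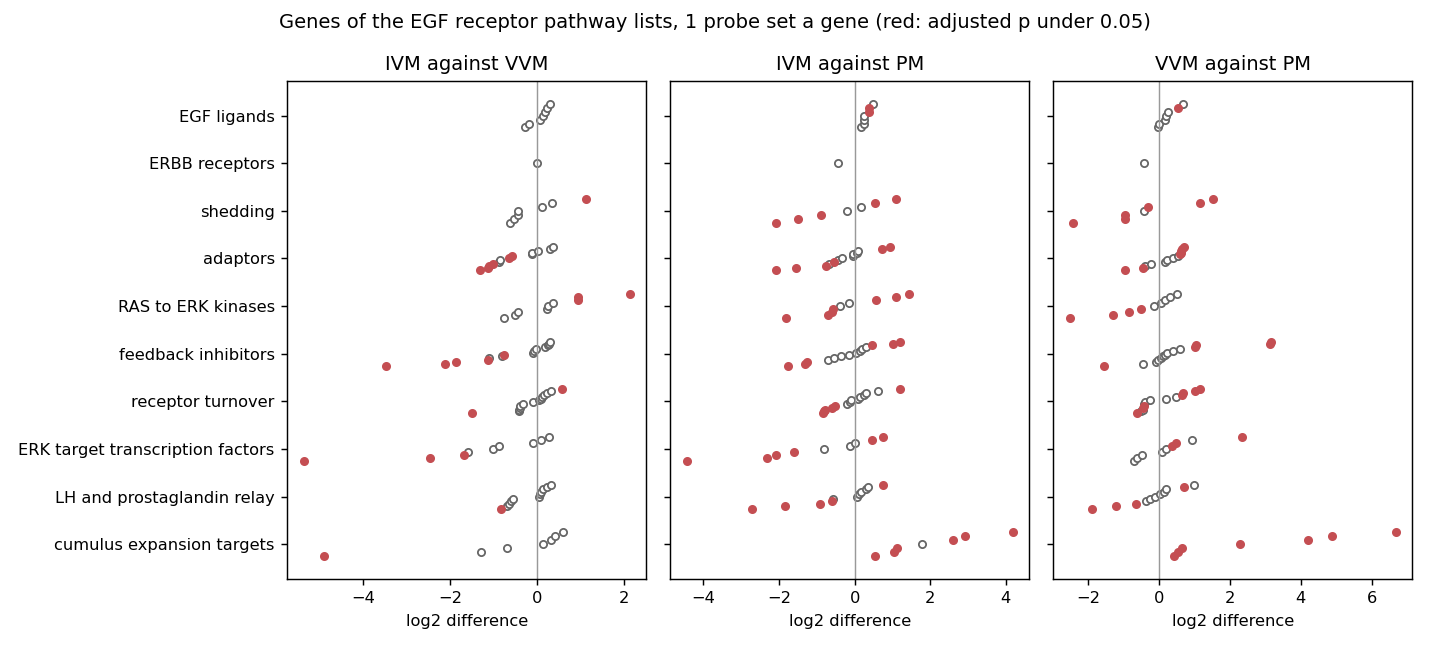
Log2 difference (horizontal axis) of each measured gene of the 10 pathway lists in the 3 comparisons, 1 point a gene; red points have an adjusted p under 0.05. Between IVM and VVM all 5 called feedback inhibitors lie below 0, and against PM all called expansion targets lie above 0.

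Each member was finally set against the 12845 genes that carry a standing gene symbol, by the root mean square (RMS) difference between log2 profiles over the 11 arrays after each gene's own mean was taken off. This is a description and no test, and all profiles share the same arrays. The genes nearest to AREG, whose own profile had an RMS of 3.002, were PTX3 (0.465), KCNG3 (0.640), GPRC5B (0.883), HSD11B1 (0.883) and TMPRSS7 (0.967). PTX3 averaged 2.67 in PM, 4.46 in IVM and 9.36 in VVM, and like AREG it was highest in IVM 1 among the IVM arrays and in VVM 3 among the VVM arrays. Nearest to BTC (own RMS 1.57) were WEE1 (0.477), SIAH1 (0.538), ALDH1L1 (0.560), SEMA6D (0.565) and SPOPL (0.568), of which WEE1 averaged 9.87 in PM, 6.19 in IVM and 8.17 in VVM.

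Nearest to EGFR (own RMS 0.716) were CNNM3 (0.312), PRCC (0.328), RNF149 (0.330), IVD (0.336) and PCYOX1L (0.346). Nearest to ERBB3 (own RMS 1.22) were PLAGL1 (0.613), MT3 (0.621), ENC1 (0.643), NUDT5 (0.650) and TRIB3 (0.652). Relative to the member's own spread, these EGFR and ERBB3 neighbours lay farther off than the first neighbours of AREG and BTC. None of the 4 members was among the 5 nearest genes of another.

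**Figure D5:**
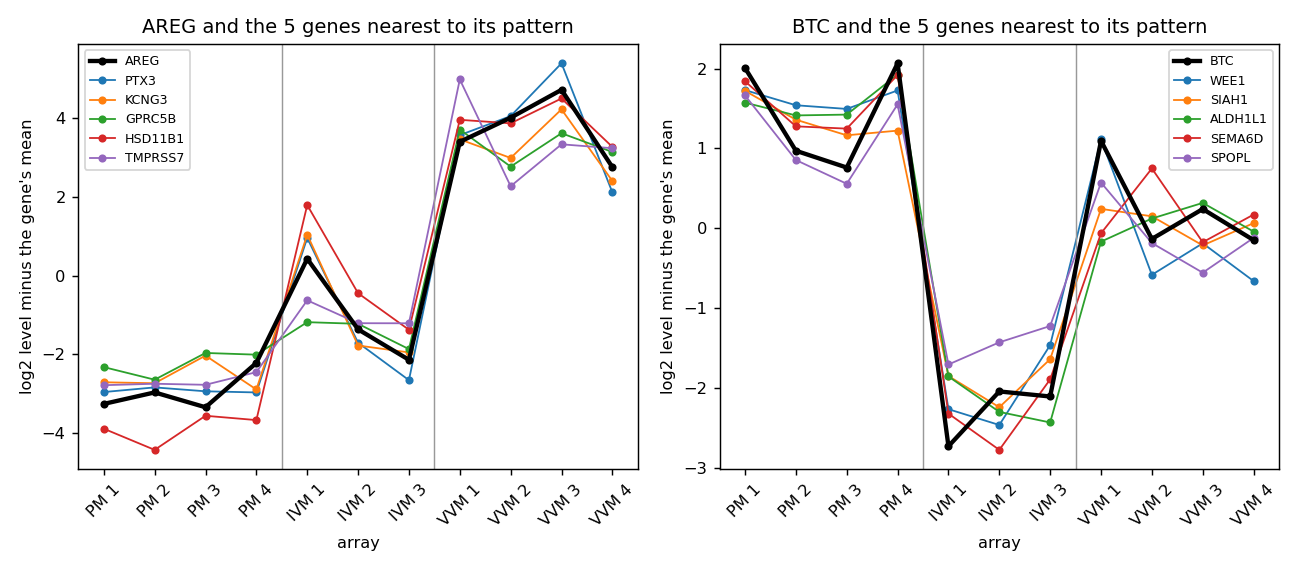
Log2 level minus the gene's own mean over 11 arrays (vertical axis) of AREG with its 5 nearest genes (left) and of BTC with its 5 nearest genes (right) in every array. The AREG set is high in the 4 VVM arrays and rises from the PM level most in IVM 1, and the BTC set is lowest in the 3 IVM arrays.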

How the data were processed

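Total RNA was measured on 11 arrays (4 PM, 3 IVM, 4 VVM). The authors deposited linear intensity values per probe set; RMA in Affymetrix Expression Console is named in the submitters' processing notes, and scanner files were not used here. The 99 control probe sets were left out of the tests. Of the 52766 others, 24956 carried 1 symbol in the platform annotation, 361 several and 27449 none; 24629 of 25330 annotated rows matched RefSeq. Intensities were put on the log2 scale with no pseudocount, and group means were compared with limma 3.58.1 in R 4.3.3 (lmFit, eBayes, two-sided, Benjamini-Hochberg adjustment over all non-control probe sets). A gene with several probe sets was represented by the one with the highest mean. Every member probe set was described. All called genes of the ligand, receptor, shedding, feedback and expansion lists were named, and of the other lists the 3 with the largest difference per comparison. The script was tested on simulated data. Members and lists were chosen with earlier results of these data known. Alternatives covered scaling, filters, prior, array weights, covariates, the replicate number as a block and each array left out. Same-numbered arrays of different groups deviated from their group means with correlations of -0.107 to 0.101. The labels do not say whether the numbers pair the samples, and with 3 or 4 arrays a group these correlations cannot decide it. Precision is limited by the number of arrays.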

Additional observations from a re-analysis of the deposited data

Results flagged for a closer look

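A single array stood far from the rest of its group in 8 of 122 groups of 4 arrays tested (members and named pathway genes in PM and VVM), where chance gives about 1 in 20. The measure is the gap to the nearest array as a share of the group's range. Among the members it was met by 1 of 16 groups, ERBB3 probe set 4 in VVM (0.871), where VVM 1 read 5.28 and the next array 5.05. Among pathway genes it was met by GAB2 in VVM (0.832, VVM 1 at 8.80 against 7.75) and TSG101 in VVM (0.909, VVM 3 at 10.67 against 10.28). In PM it was met by EGR2 (0.844, PM 2 at 9.07 against 10.63), SPRY4 (0.866, PM 1 at 5.87 against 4.86), HAS2 (0.854, PM 2 at 6.90 against 4.72), VCAN (0.844, PM 4 at 12.51 against 12.72) and ADAMTS1 (0.950, PM 1 at 4.48 against 5.25).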

How the results depend on the processing

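AREG between IVM and VVM and between VVM and PM kept direction and call in all 24 alternatives. For AREG between IVM and PM the difference was 1.88 with a replicate block (adjusted p = 0.0627), -0.041 with the hybridization controls as covariate, 0.57 with the 3′ to 5′ covariate, 1.81 without PM 1, VVM 2 and VVM 3, and 1.19 to 2.47 when 1 array was left out. BTC was -1.42 (IVM against PM) and -1.45 (IVM against VVM) with the hybridization controls, and its other probe set gave -0.078, -0.065 and, for VVM against PM, -0.013. BTC between VVM and PM was -0.98 after quantile normalization again, 0.033 with the hybridization controls, -0.74 with the 3′ to 5′ covariate, -0.98 with the leukocyte genes, -0.79 without the 3 arrays and -1.46 to -0.98 when 1 array was left out. EGFR between IVM and PM was -1.93 with the hybridization controls and -1.39 with the 3′ to 5′ covariate. With the replicate block EGFR was called between IVM and VVM (-0.71, adjusted p = 0.0451) and between VVM and PM (-0.61, adjusted p = 0.0243), and between IVM and VVM it was -1.10 to -0.75 when 1 array was left out.

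ERBB3 between IVM and PM was 2.57 with the hybridization controls and 0.11 by probe set 3. ERBB3 between IVM and VVM was 2.49 with the hybridization controls, 1.93 with the leukocyte genes, 2.23 without the 3 arrays, -0.20 by probe set 3 and 0.31 by probe set 4. ERBB3 between VVM and PM, not called, turned to 0.080 with the hybridization controls, 0.19 with the 3′ to 5′ covariate, 0.35 with the leukocyte genes, and 0.089, 0.31 and 0.19 by probe sets 2, 3 and 4, and ran from -0.37 to 0.10 when 1 array was left out. Uncalled differences of the remaining probe sets also crossed 0. BTC probe set 2 gave 0.0189 (IVM against PM) and 0.0636 (VVM against PM) without the 3 arrays and 0.0296 (VVM against PM) with the 3′ to 5′ covariate, and ran from -0.21 to 0.0189, from -0.20 to 0.0166 (IVM against VVM) and from -0.11 to 0.0837 (VVM against PM) when 1 array was left out. ERBB3 probe set 3 gave -0.0321 after centring and -0.0803 after cyclic loess (IVM against PM, -0.0321 to 0.26 when 1 array was left out) and 0.21 with the hybridization controls (IVM against VVM). ERBB3 probe set 2 gave -0.0184 after centring and -0.11 with the hybridization controls (VVM against PM, -0.23 to 0.33 when 1 array was left out). Among the pathway genes FRMD8 turned to 0.013 and SH3KBP1 to 0.35 with the hybridization controls (IVM against PM). Of 87 named pathway gene differences, each by its brightest probe set, 17 kept their call in every alternative and 70 lost it in at least 1.

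Over all probe sets, 21448 calls for IVM against PM became 13707 without dim probe sets, fewer being tested, 8 with the hybridization controls and 8002 with the 3′ to 5′ covariate (16299 to 21994 when 1 array was left out). The 5989 for IVM against VVM became 718 with the hybridization controls, 2840 with the leukocyte genes, 3243 without the 3 arrays and 3445 to 6298 when 1 array was left out, the lowest without IVM 2. The 16483 for VVM against PM became 3721, 9811 with the 3′ to 5′ covariate, 6447 with the leukocyte genes and 7735 without the 3 arrays (12592 to 17061 when 1 array was left out). The cause of these shifts was not tested. With 3 or 4 arrays a group, the covariates overlap with the groups, and low-level probe sets give folds that may be too small.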

Other observations

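Markers of other cell types were read from the same fit, in which 25.0% of all genes were higher and 20.9% lower for IVM against PM, 18.0% and 21.8% for VVM against PM, and 9.06% and 7.63% for IVM against VVM. Several of the counts below are near or under these shares. For VVM against PM, 8 of the 14 measured leukocyte genes were higher and 2 lower, for IVM against PM 3 and 2, and for IVM against VVM 0 and 2. Of 9 endothelial genes, 3 were higher and 1 lower in both comparisons with PM, and 1 was higher and 1 lower in IVM against VVM. Of 7 theca and stroma genes, 5 were higher and 0 lower in IVM against PM, 2 and 1 in VVM against PM, and 1 and 0 in IVM against VVM. Of 10 oocyte genes, 2, 1 and 1 were higher and 0 lower in IVM against PM, VVM against PM and IVM against VVM. Of 4 red blood cell genes, 0, 1 and 0 were higher and 1, 0 and 1 lower in the same order. Among the cumulus and granulosa markers themselves, 3 were higher and 8 lower in IVM against PM, 2 and 11 in VVM against PM, and 7 and 0 in IVM against VVM. Their summed intensity ranged from 65978 to 78203 in PM, from 45782 to 63721 in IVM and from 47102 to 54575 in VVM.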
